A study of Mus musculus with 23 samples.

Results

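Windows at the start sites of the major histocompatibility complex (MHC) genes and their antigen processing partners were examined in captured methylated DNA from mouse heart and spleen. Members were the rows whose symbol begins with H2-, 43 in number, together with 10 others: Tap1, Tap2, Tapbp, Tapbpl, Psmb8, Psmb9, Psmb10, B2m, Cd74 and Nlrc5. They made up 53 of the 41388 gene windows listed in the table of each tissue. DNA came from the left ventricle and the spleen of male C57Bl/6 mice, kept 1 to a cage. The control group ate a diet without resistant starch, the high fibre group ate the resistant-starch-rich diet SF11-025, and the acetate group drank 100 mM magnesium acetate. Heart had 4 control, 4 high fibre and 3 acetate libraries, and spleen had 4 of each. Diets began 3 weeks ahead of an operation to place a minipump, which the labels describe for all mice without giving its contents. Age is not given. The labels do not state that the libraries of a group came from separate mice, so each p-value reflects only how far these libraries scatter, which may be technical.

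MHC class I molecules carry peptides cut in the cytosol to the cell surface, where cytotoxic T cells read them. They consist of a heavy chain (H2-K1 and H2-D1 are the classical ones in this strain) and beta-2 microglobulin (B2m). Immunoproteasome subunits cut the peptides, the TAP transporter brings them into the endoplasmic reticulum, and tapasin (Tapbp) helps load them. MHC class II molecules, made of an alpha and a beta chain, show peptides from endosomes to helper T cells and are most abundant on B cells, dendritic cells and macrophages. The invariant chain Cd74 guides them, H2-DM exchanges their peptides and H2-O restrains H2-DM. NLRC5 is a transactivator of class I genes.

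MethylMiner captures sheared DNA that binds a methyl-CpG binding protein, so a read count rises with methylation, with CpG number and with capture efficiency. No unenriched library was used, so counts give no absolute methylation. A bulk tissue mixes cell types, and a change in cell makeup cannot be told apart from a change within cells. Levels are given as CPM, reads per M (mega) reads of a library after TMM scaling, either over both tissues or over heart alone. Because many H2 genes are near-identical copies and the handling of reads with several alignments is not given, values of the H2-Q, H2-T and H2-M families are uncertain. RefSeq lists 9 members as pseudogenes, which the role groups include: 5 non-classical class I, 3 class II chains and H2-K2.

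Promoter sequences of 7 members are shown because their windows differed between heart and spleen in opposite directions. Each spans 250 bases before to 50 after the start in RefSeq, build GRCm38.p6, read along the gene from 5′ to 3′, and capitals mark CpG sites. For H2-K1 and H2-DMa the start used lies inside the gene as RefSeq bounds it. The middle of the authors' windows need not be the start used here. H2-K1 lies at chr17:34000298-34000597 (minus strand), B2m at chr2:122147437-122147736 (plus), H2-Aa at chr17:34287774-34288073 (minus) and H2-Ob at chr17:34238655-34238954 (plus). H2-DMa lies at chr17:34122582-34122881, Tapbp at chr17:33919228-33919527 and Tap1 at chr17:34187306-34187605, all on the plus strand.
H2-K1: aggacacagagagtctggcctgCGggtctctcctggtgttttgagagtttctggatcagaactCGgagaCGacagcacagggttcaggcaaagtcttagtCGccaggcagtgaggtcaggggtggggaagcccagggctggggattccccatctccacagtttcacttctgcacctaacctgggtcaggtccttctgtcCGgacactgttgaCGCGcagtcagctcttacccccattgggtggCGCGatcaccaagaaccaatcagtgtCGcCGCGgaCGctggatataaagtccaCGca
B2m: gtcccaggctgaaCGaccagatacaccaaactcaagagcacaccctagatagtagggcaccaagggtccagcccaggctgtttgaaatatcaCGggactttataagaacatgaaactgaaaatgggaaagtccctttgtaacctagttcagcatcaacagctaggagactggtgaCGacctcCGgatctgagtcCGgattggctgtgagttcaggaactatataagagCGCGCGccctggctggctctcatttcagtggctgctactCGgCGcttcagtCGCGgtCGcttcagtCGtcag
H2-Aa: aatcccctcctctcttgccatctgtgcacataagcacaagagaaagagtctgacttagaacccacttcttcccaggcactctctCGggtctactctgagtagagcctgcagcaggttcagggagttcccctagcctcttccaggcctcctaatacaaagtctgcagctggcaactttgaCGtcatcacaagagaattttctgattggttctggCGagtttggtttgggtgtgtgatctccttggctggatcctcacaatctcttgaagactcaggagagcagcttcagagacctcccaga
H2-Ob: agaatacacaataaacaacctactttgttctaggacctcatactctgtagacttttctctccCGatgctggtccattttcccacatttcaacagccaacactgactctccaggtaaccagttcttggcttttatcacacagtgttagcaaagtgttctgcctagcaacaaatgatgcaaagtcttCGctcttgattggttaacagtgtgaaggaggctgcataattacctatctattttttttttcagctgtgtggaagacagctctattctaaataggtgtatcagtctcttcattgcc
H2-DMa: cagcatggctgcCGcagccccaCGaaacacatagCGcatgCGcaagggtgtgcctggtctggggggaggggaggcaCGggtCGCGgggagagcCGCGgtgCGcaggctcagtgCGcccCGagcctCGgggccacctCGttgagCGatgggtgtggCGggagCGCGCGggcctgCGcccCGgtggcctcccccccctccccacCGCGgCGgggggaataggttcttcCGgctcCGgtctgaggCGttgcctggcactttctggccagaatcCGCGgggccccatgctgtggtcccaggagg
Tapbp: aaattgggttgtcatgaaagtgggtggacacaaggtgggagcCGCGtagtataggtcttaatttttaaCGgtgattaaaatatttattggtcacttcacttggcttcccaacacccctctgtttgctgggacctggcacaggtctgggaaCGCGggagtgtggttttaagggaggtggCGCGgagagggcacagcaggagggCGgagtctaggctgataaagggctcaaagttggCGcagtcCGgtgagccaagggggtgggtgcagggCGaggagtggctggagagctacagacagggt
Tap1: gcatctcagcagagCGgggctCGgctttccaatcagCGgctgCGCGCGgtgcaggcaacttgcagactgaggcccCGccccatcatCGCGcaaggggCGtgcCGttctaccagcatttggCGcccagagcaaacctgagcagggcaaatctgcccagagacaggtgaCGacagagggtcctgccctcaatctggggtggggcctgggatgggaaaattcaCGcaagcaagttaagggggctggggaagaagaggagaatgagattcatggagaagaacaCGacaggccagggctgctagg

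The stretch at H2-Aa held 3 CpG sites and that at H2-Ob held 2, against 29 at H2-DMa, 15 at Tap1, 14 at H2-K1, 14 at B2m and 11 at Tapbp. A RefSeq promoter was found for 37 of the 53 members. The median CpG number was 4 in these and 7 over all 27025 promoters of the same length. The Y box of MHC promoters (CTGATTGG, searched on both strands) was present in 19 of 37 member promoters (51.4%), among them H2-K1, H2-Aa and Tap1, and in 4.31% of all promoters. The 19 are not independent: Psmb9 and Tap1 share the same 8 bases, and several lie in related H2-M genes at like positions. For the X2 box only the exact string TGCGTCA was searched. It was found in 0 of 37, and in 2.2% of all, which does not show that the box is absent, since variants were not searched. An interferon response core, GAAANNGAA, was found in 3 of 37 (8.11%: H2-T23, H2-T22 and B2m) and in 8.58% of all. A match describes letters only. Across the 37 members, promoter CpG number and mean CPM had a Spearman rho of 0.35 to 0.44 in the 6 groups. All 37 share libraries and depth, and the relation is given as a description.

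Heart libraries had totals of 4.12 to 8.60 M counts and spleen libraries 4.36 to 9.87 M, and the members held 0.0968% to 0.112% of the counts outside the 5 largest windows in every library. Of the 53 members, 47 passed a filter on low counts in heart and in the fit of both tissues, and 38 passed in spleen. Windows that passed in heart but not in spleen could enter the tissue tests through heart counts, which favours a higher value in heart. H2-Ke6 and Tapbpl had 0 reads in all 23 libraries. H2-Eb1, the beta chain of I-E, had at most 6 reads in a library, and H2-T22, H2-T10 and H2-M11 at most 8, 3 and 3. These 6 windows were not tested. The largest window, the predicted gene Gm10800, took 42.3% ± 5.80 (SD, n = 4) of counts in control heart, 19.05% ± 1.70 in high fibre heart and 33.8% ± 10.5 (n = 3) in acetate heart. Its spleen share was 55.8% ± 2.84 in control libraries, 55.8% ± 4.70 in high fibre ones and 51.9% ± 2.69 in acetate ones. High fibre differed from control heart (exact permutation p = 0.0286, two-sided, where 4 against 4 libraries can give no smaller value), and the adjusted p over 4 tests was 0.114.

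Heart and spleen differed at most MHC windows, in both directions. On the control diet 33 of 47 tested members passed the test, 18 higher and 15 lower in heart. All windows gave 72.7% called, 40% higher and 32.7% lower, so the share of members called was near the background. The median log2 difference, heart minus spleen, was 0.09 over members and 0.19 over all windows. On high fibre 37 of 47 were called (20 higher, 17 lower), against 80.7%, 45.1% and 35.6% of all windows. On acetate 28 of 47 were called (15 higher, 13 lower), against 63%, 34% and 29%. The corresponding medians were 0.12 and 0.02 for members and 0.24 and 0.19 for all windows. On every diet 14 members were higher in heart and 11 lower. Of the 14, H2-Eb2 and H2-M3 had few reads in control spleen and could enter the test through heart counts. Over all windows the control difference went with capture strength: with 10 equal groups by mean level, its median was 1.56 in group 3 and -0.73 in the most captured group. Of the 18 higher members 15 lay in the 5 weaker groups, and of the 15 lower ones 13 lay in the 5 stronger groups. Of 7 B cell markers 6 were higher and 0 lower in heart on control. Their summed level was 94.9 to 118 CPM in control heart and 54.2 to 66.0 in control spleen, with none at 0. Of 10 cardiomyocyte markers 7 were lower and 3 higher in heart (summed 127 to 156 CPM against 244 to 325). Endothelial markers had 4 of 4 lower, myeloid 3 higher and 1 lower of 5, T cell 2 higher and 1 lower of 6, erythroid 1 higher and 2 lower of 4, and fibroblast 3 higher and 1 lower of 4. The part of cell makeup in the member differences was not tested.

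**Figure D1:**
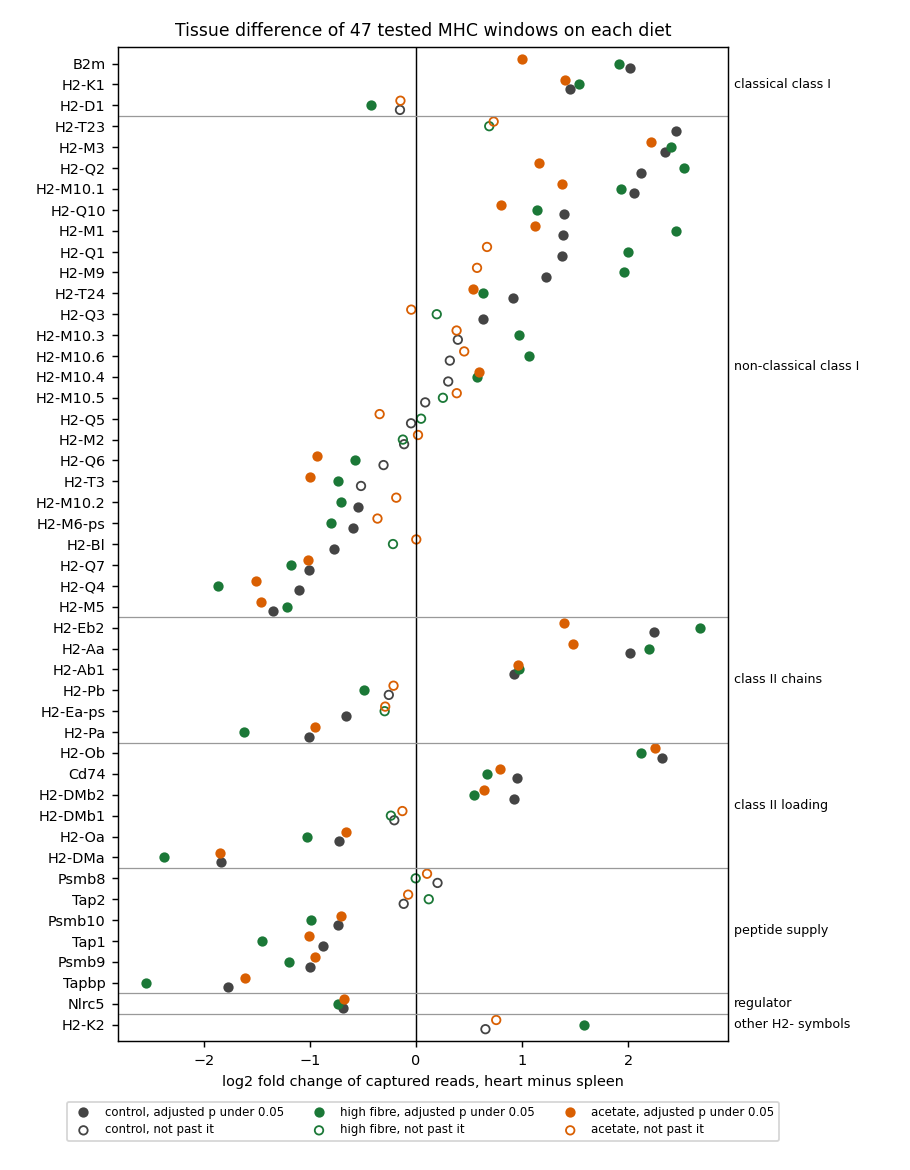
Log2 fold change of captured reads, heart minus spleen, for the 47 tested members on each diet, grouped by role and ordered by the control value. Filled points passed an adjusted p of 0.05 in edgeR and open points did not. Classical class I, class II chains and class II loading hold members on both sides of 0, while no filled point of the peptide supply genes lies above 0.

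With TMM scaling the classical class I windows of H2-K1 and B2m held more captured DNA in heart, and H2-D1 did not. H2-K1 had 6.85, 6.78, 5.89 and 7.57 CPM in the 4 control heart libraries and 1.63, 2.96, 3.75 and 0.215 in control spleen. B2m had 5.84, 7.55, 6.48 and 6.06 CPM in heart and 0.932, 2.11, 1.14 and 1.07 in spleen. Every heart library lay above every spleen library for both genes. H2-K1 was higher in heart by 1.45 on the log2 scale (SE 0.31, adjusted p = 3.93e-05) on control, by 1.53 on high fibre and by 1.4 on acetate. The B2m difference was 2.02 (SE 0.30, adjusted p = 8.97e-08), 1.91 and 1.00 in the same order. With cyclic loess scaling the H2-K1 difference was 0.42 to 0.64 over the diets and passed the test on none of them. The B2m difference was then 0.16 to 1.10. H2-D1, the other classical heavy chain, stood at 14.7 ± 1.62 CPM in control heart and 16.7 ± 4.12 in control spleen, and the ranges overlapped. On high fibre it was lower in heart by 0.43 (adjusted p = 0.0211), a difference that turned to 0.19 with cyclic loess and 1.14 with library totals. It was -0.30 (adjusted p = 0.128) without high fibre spleen library 4.

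Among 24 tested non-classical class I windows, 10 were higher and 6 lower in heart on control, 11 and 7 on high fibre, and 7 and 5 on acetate. Over all windows the shares were 40% and 32.7%, 45.1% and 35.6%, and 34% and 29%. With cyclic loess the counts were 4 and 6, 1 and 7, and 1 and 6. Cyclic loess called 50.4%, 52.3% and 42.2% of all windows. In spleen alone 17 of the 24 passed the filter, so the rest could enter through heart counts. H2-M3, which presents N-formylated peptides, had 14 to 28 reads per library in control heart (2.35 ± 0.81 CPM) and 0 to 3 in control spleen (0.19 ± 0.24 CPM), so its log2 difference of 2.35 rests on few spleen reads. H2-T23 encodes Qa-1 and stood at 3.54 ± 0.84 CPM in control heart and 0.38 ± 0.20 in control spleen, a difference of 2.45 (SE 0.61, adjusted p = 3.00e-05). High fibre spleen library 4 had 5.78 CPM and the other high fibre spleen libraries 0.739 to 1.14. The tissue difference on high fibre was 0.69 (adjusted p = 0.12), and 1.77 (adjusted p = 0.000401) without that library. H2-Q10, a secreted class I chain of liver, was higher in heart by 1.39, 1.14 and 0.80 on the 3 diets in that order. In the other direction, H2-Q4 had 4.04 to 5.54 CPM in control heart and 8.45 to 12.5 in control spleen. Its log2 difference was -1.10, -1.86 and -1.51 for control, high fibre and acetate. H2-M5 gave -1.35, -1.22 and -1.46, and H2-Q7, a Qa-2 gene, gave -1.01, -1.18 and -1.02. With library totals both turned positive on high fibre, at 0.33 and 0.38.

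The class II chains of I-A were higher in heart. H2-Aa, the I-A alpha chain, had 8.16, 9.95, 8.39 and 9.34 CPM in control heart and 1.63, 3.10, 2.12 and 0.645 in control spleen. High fibre heart ran from 10.5 to 12 CPM and high fibre spleen from 1.11 to 4.96, and acetate heart ran from 6.67 to 8.97 against 0.863 to 5.47. The ranges were apart on all 3 diets. Log2 differences of H2-Aa were 2.01 (SE 0.32, adjusted p = 3.94e-07) on control, with high fibre at 2.20 and acetate at 1.48. H2-Ab1, the I-A beta chain, had 17.8 ± 2.46 CPM in control heart and 9.09 ± 1.98 in control spleen, and was higher by 0.92, 0.97 and 0.96 on the 3 diets. H2-Eb2 was higher by 2.24, 2.68 and 1.4, from 2 to 5 reads per control spleen library. With so few spleen reads it could enter the test through heart counts, which favours a higher value in heart. Its acetate call was lost with cyclic loess (0.37) and with 1 surrogate variable. H2-Pa was lower in heart on every diet, at -1.01, -1.62 and -0.95. H2-Ea-ps, the I-E alpha pseudogene of this strain, differed by -0.66 (adjusted p = 2.17e-04) on control and did not pass on the other diets (-0.30 and -0.29). On control it was -0.23 with cyclic loess and turned to 0.22 with library totals, past the threshold with neither. This gene and H2-DMb2 fall outside the rule for named members here and were picked with their values known.

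The class II loading genes differed in direction. H2-Ob, the beta chain of H2-O, had 11.9, 10.7, 9.87 and 11 CPM in control heart and 0.699, 3.38, 1.30 and 1.93 in control spleen. H2-DMa, the alpha chain of H2-DM, had 20.6, 16.3, 14.9 and 20.3 CPM in control heart and 69.4, 62.2, 63.2 and 67.7 in control spleen. The tissues did not overlap for either gene, and the directions were opposite. H2-Ob was higher in heart by 2.32 (SE 0.27, adjusted p = 1.40e-09), 2.12 and 2.25 on control, high fibre and acetate. H2-DMa was lower at -1.84 (SE 0.16, adjusted p = 1.65e-11), -2.38 and -1.85. The alpha chain of H2-O, H2-Oa, was also lower (-0.73, -1.03 and -0.66), but with library totals it turned positive, at 0.15, 0.53 and 0.24. H2-DMb1, a beta chain of H2-DM, differed by -0.21, -0.24 and -0.13 and passed on no diet. With library totals it turned to 0.68, 1.33 and 0.82. H2-DMb2, another beta chain of H2-DM, was higher by 0.93 on control. Its values of 0.55 on high fibre and 0.64 on acetate lost their calls with cyclic loess (0.47 and 0.55), and when any of 4 and any of 5 libraries was left out (0.29 to 0.49 and 0.51 to 0.58). The start used here for H2-DMa lies at 34122832, inside a gene that RefSeq begins at 34119693. Its neighbouring start is that of Brd2, 225 bp away, whose window was also lower in heart on control, at -0.94. Between high fibre and control heart the 2 windows differed: H2-DMa was lower at -0.53, and Brd2 was at 0.03 and did not pass. How reads in overlapping windows were shared is not given. Cd74 stood at 9.77, 10.1, 10.8 and 11.7 CPM in control heart and 4.43, 5.91, 5.54 and 5.16 in control spleen. It was higher in heart by 0.95, 0.67 and 0.79 on the 3 diets.

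No peptide supply gene was called higher in heart: 4 of 6 tested were lower on each diet. With library totals 2, 4 and 2 of the 6 were higher on control, high fibre and acetate, and 1 was lower on each. That setting called 74.8%, 87.8% and 73.8% of all windows in the same order. Tapbp had 17, 12.4, 15.5 and 13.8 CPM in control heart and 74.6, 36.0, 46.4 and 47.5 in control spleen. Its log2 difference was -1.77 (SE 0.23, adjusted p = 3.50e-08) on control, with high fibre at -2.55 and acetate at -1.61. Tap1, a transporter subunit, stood at 18.9 ± 1.63 CPM in control heart and 34.9 ± 1.87 in control spleen, and differed by -0.88, -1.45 and -1.01. The immunoproteasome subunit gene Psmb9 differed by -1.0, -1.20 and -0.95. Its start lies 226 bp from that of Tap1, so their windows overlap and are not independent. Psmb10, its counterpart on another chromosome, differed by -0.73, -0.99 and -0.71. The control value was -0.48 (adjusted p = 0.11) without control spleen library 1. The acetate value lost its call when any of 6 libraries was left out, among them acetate spleen library 4 (-0.40, adjusted p = 0.279) and acetate heart library 2 (-0.44, adjusted p = 0.25). With library totals Tap1 turned positive on control (0.01) and high fibre (0.11), Psmb9 on high fibre (0.37), and Psmb10 on all 3 diets (0.16, 0.56 and 0.22). Tap2 and Psmb8 did not pass the test on any diet.

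Nlrc5 was lower in heart with TMM scaling. It stood at 41.4, 44.6, 39.6 and 42.2 CPM in control heart and 73.6, 57.2, 72.2 and 69.0 in control spleen. The log2 difference was -0.69, -0.73 and -0.68 over the 3 diets, but it turned to 0.06, 0.33 and 0.02 with cyclic loess and to 0.23, 0.85 and 0.24 with library totals. Over all windows the median tissue difference on control was 0.19 with TMM, 0.05 with cyclic loess and 1.02 with library totals. Of the 14 members higher on every diet, 4 were called in the same direction on each diet under RLE, library totals and cyclic loess: Cd74, H2-Aa, H2-Ab1 and H2-Ob. Of the 11 lower members, 2 were: H2-DMa and Tapbp. With 1 surrogate variable Cd74, H2-Aa and H2-Ab1 lost their calls on high fibre. H2-Ob, H2-DMa and Tapbp kept theirs on each diet.

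**Figure D2:**
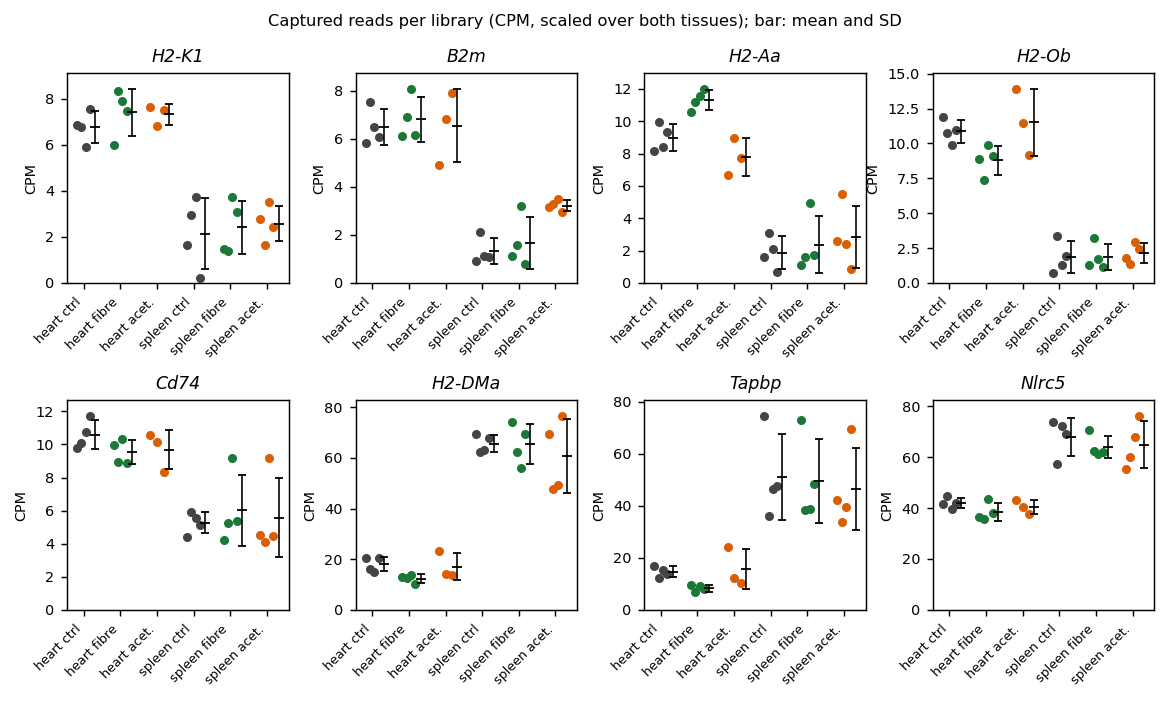
Captured reads per library, in CPM scaled over both tissues, for 8 members in 6 groups; the bar beside each group is the mean with its SD. H2-K1, B2m, H2-Aa, H2-Ob and Cd74 are higher in control heart than in control spleen, and H2-DMa, Tapbp and Nlrc5 are lower.

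Between high fibre and control heart, 3 peptide supply genes (Tapbp, Tap1 and Psmb8), 2 class II loading genes (H2-DMa and H2-Oa), H2-Pa and H2-Q4 were lower. H2-Bl, H2-Q1, H2-Q2 and H2-Aa were higher. In all, 11 of 47 tested members passed the test (23.4%), and 26.2% of all windows did. Higher were 4 members, where 12.6% of all windows were, and lower were 7, where 13.6% of all windows were. The median log2 change was -0.04 over members and 0.02 over all windows. The count of members was near the background. Change followed capture strength over all windows: with windows split into 10 equal groups by mean level, the median change ran from 0.63 in the least captured group to -0.26 in the most captured. The 4 higher members lay in groups 3 to 6 and the 7 lower ones in groups 3 to 9, of which 6 were above group 5. H2-Aa and H2-Oa were both in group 6 (median -0.03), and H2-Q4, H2-Bl and H2-Q1 in group 3 (median 0.37). Tapbp and Psmb8 were in group 7 (median -0.12). By role, 3 of 6 peptide supply genes were lower, as were 2 of 6 class II loading genes. Class II chains had 1 higher and 1 lower of 6, non-classical class I 3 higher and 1 lower of 24, and classical class I 0 of 3. Marker lists of other cell types had called windows too, with none at 0. Of T cell markers 3 of 6 were lower (summed 66.5 to 81.8 CPM on high fibre against 90.7 to 100.3 on control), and of myeloid markers 3 of 5 (67.8 to 79.3 against 93.2 to 107). Cardiomyocyte markers had 4 of 10 lower (109 to 119 against 127 to 156), erythroid 2 of 4 and endothelial 1 of 4. B cell markers had 2 lower and 1 higher of 7, and fibroblast markers 1 higher of 4. Their part in the member changes was not tested.

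Tapbp had 14.4, 10.1, 13.8 and 11.9 CPM (scaled over heart) in the 4 high fibre libraries and 25.7, 18.7, 23.3 and 20.8 in the 4 control libraries. All high fibre values lay below all control values, and the log2 change was -0.80 (SE 0.20, adjusted p = 0.00883). For Tap1 the values were 19.5, 15.9, 21.7 and 17.2 on high fibre and 26.3, 27.6, 32 and 28.1 on control. These groups did not overlap either, with a change of -0.60 (SE 0.14, adjusted p = 0.00852). Psmb8, a catalytic subunit of the immunoproteasome, had 12.7, 13.2, 12.4 and 11.9 CPM on high fibre and 20.2, 14.7, 18.7 and 17.6 on control. The change was -0.49 (SE 0.13, adjusted p = 0.0109), again with no overlap.

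H2-DMa had 19.7, 19.0, 21.1 and 15.3 CPM on high fibre and 31.1, 24.6, 22.4 and 30.7 on control, a change of -0.53 (SE 0.16, adjusted p = 0.0185). H2-Oa had 12.6, 10.7, 10.8 and 12 CPM on high fibre and 19.6, 14.5, 15.1 and 14.5 on control, a change of -0.47 (adjusted p = 0.0306). Both loading genes were lower in every high fibre library than in every control library. H2-Pa, a class II pseudogene, ranged from 23.5 to 28.1 CPM on high fibre and from 33.8 to 46.9 on control (-0.63, SE 0.15, adjusted p = 0.00823). H2-Q4 ranged from 3.44 to 5.28 CPM against 6.11 to 8.37 (-0.67, adjusted p = 0.0329), with 19 to 37 reads per high fibre library.

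Among the 4 higher members, H2-Aa had 16, 17, 17.6 and 18.2 CPM on high fibre and 12.3, 15.0, 12.7 and 14.1 on control, from 57 to 127 reads per library. Its change was 0.34 (SE 0.13, adjusted p = 0.0478). H2-Bl, a class I sequence that RefSeq lists as a transcribed pseudogene, had 7.65, 6.34, 8.56 and 6.74 CPM on high fibre and 2.28, 2.64, 3.33 and 4.20 on control. It had the largest change among the members called, 1.17 (SE 0.28, adjusted p = 0.00695), from 15 to 22 reads per control library. H2-Q1 rose by 0.80 (adjusted p = 0.0398) and H2-Q2 by 0.65 (adjusted p = 0.0309). Among the 36 members not called, H2-K1 had a change of 0.13, B2m 0.08, H2-D1 -0.13, Cd74 -0.14 and Nlrc5 -0.12.

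**Figure D3:**
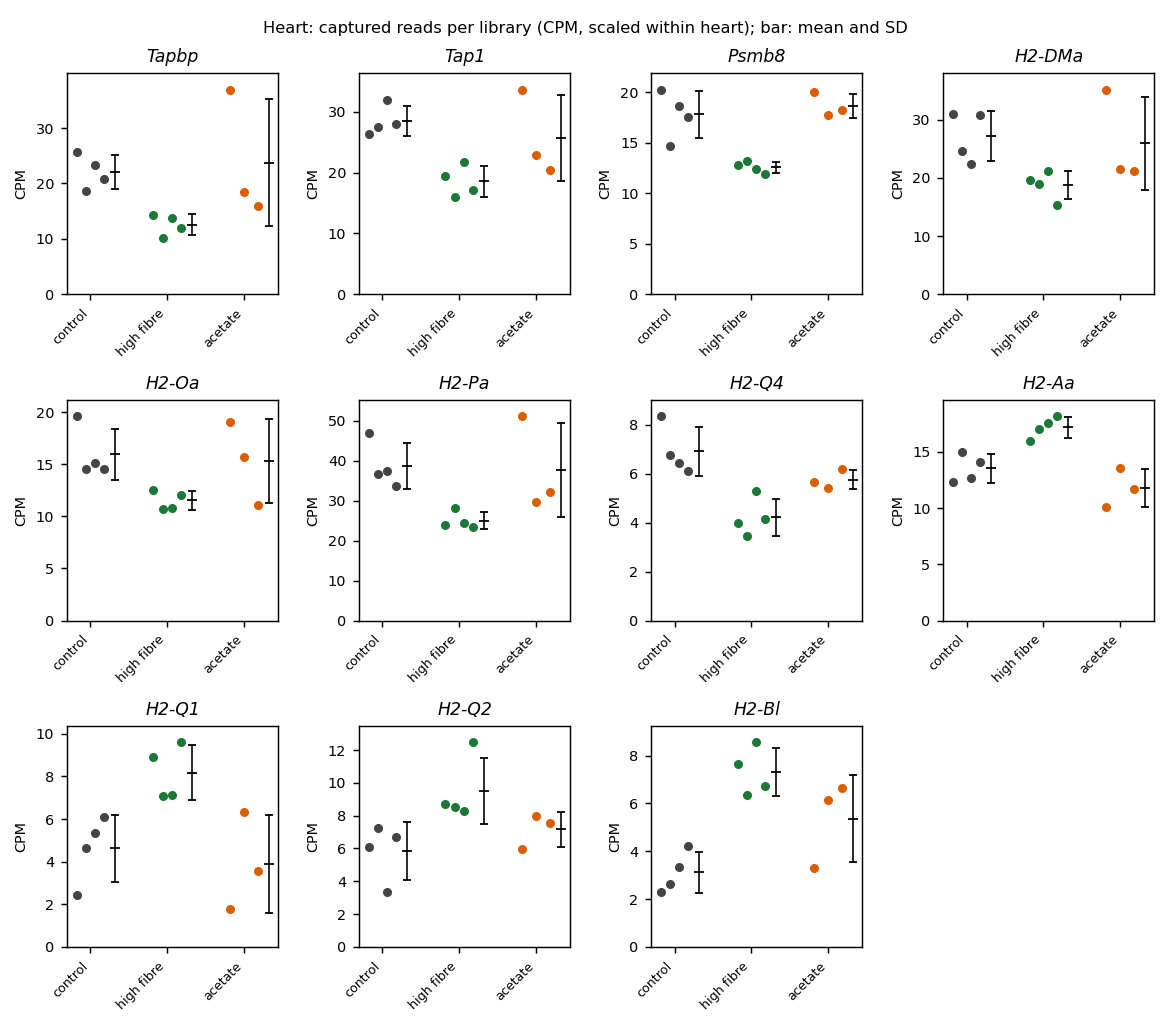
Captured reads per heart library, in CPM scaled over heart, for the 11 members called between high fibre and control; the bar beside each group is the mean with its SD. For each member the 4 high fibre points lie apart from the 4 control points, and the acetate points of H2-Oa fall within both ranges.

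These calls depended on scaling and on individual libraries. With library totals 34 members were higher and 0 lower, beside 73.2% of all windows called. The median of all windows moved from 0.02 to 0.69. With 1 surrogate variable 0 members were called (0.325% of all windows), and with cyclic loess 2 were higher and 5 lower. With library totals Tap1, Psmb8, H2-DMa, H2-Oa and H2-Pa turned positive, at 0.09, 0.20, 0.15, 0.22 and 0.07, while Tapbp was at -0.11 and H2-Q4 at -0.016, both short of the threshold. H2-Q1 turned to -0.02 with 1 surrogate variable. Leaving out a library gave 4 called members without control library 1, 5 without high fibre library 4, 6 without control library 3, 7 without high fibre library 2 and 17 without acetate library 1. Tapbp, Tap1, H2-Pa and H2-Bl were called whichever of the 11 heart libraries was left out. Psmb8 kept its call in 10 of these 11 fits, H2-DMa and H2-Q2 in 8, H2-Oa in 6, H2-Q4 in 5, and H2-Aa and H2-Q1 in 4.

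**Figure D4:**
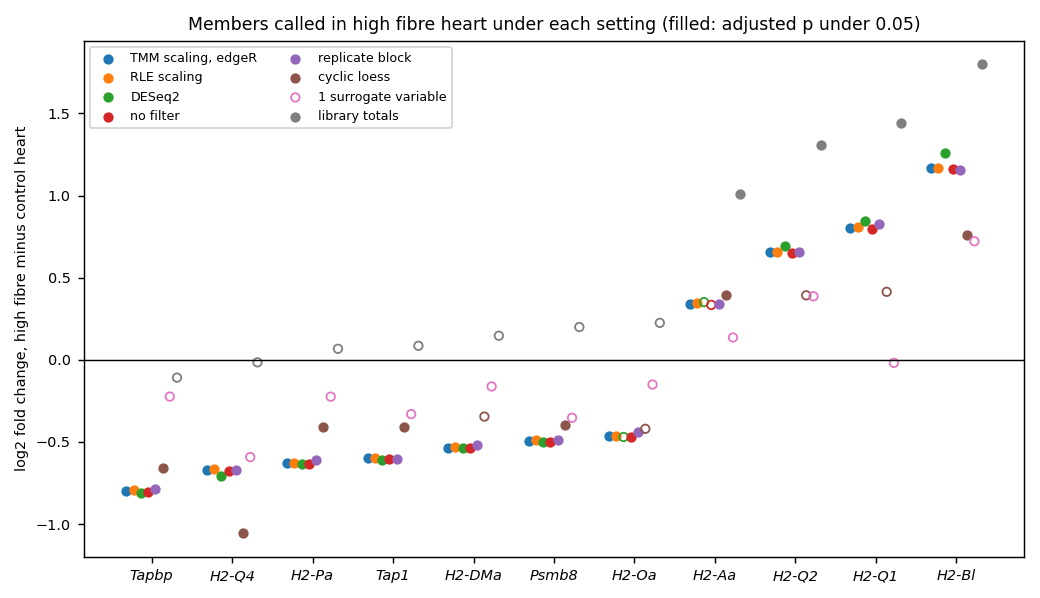
Log2 fold change, high fibre minus control heart, of the 11 called members under 8 settings of scaling and model; filled points passed an adjusted p of 0.05. With library totals the changes shift upward together, and with 1 surrogate variable no point is filled.

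Between high fibre and acetate heart, 2 of 47 members were called, both lower: Tapbp at -0.83 (SE 0.21, adjusted p = 0.0497) and Psmb8 at -0.55 (SE 0.14, adjusted p = 0.0497). All windows gave 1.38% called, 0.188% higher and 1.19% lower. Tapbp had 36.96, 18.4 and 15.9 CPM in acetate libraries 1 to 3, and Psmb8 had 19.97, 17.7 and 18.2. Both acetate ranges lay above the high fibre ranges given before. This comparison shares its high fibre libraries with the one against control. The count was 0 with RLE scaling (0% of all windows), and it ranged from 0 to 6 when 1 library was left out. It was 6 without acetate library 2 (8.72% of all windows) and without acetate library 3 (13.4%). Tapbp was at -0.43 (adjusted p = 0.185) without acetate library 1. Either gene lost its call in 8 of the 11 fits.

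Acetate against control in heart gave 0 of 47 members called by edgeR, and 0% of all windows. At an unadjusted p under 0.05 there were 2 members: H2-Bl at 0.78 and H2-Q5 at -0.34. DESeq2 also called 0, and without acetate library 1 the edgeR count was 1 (2.02% of all windows). H2-Bl had 3.28, 6.15 and 6.65 CPM on acetate, of which the lowest lay within the control range.

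In spleen, none of the 38 tested members passed the test in any diet comparison by edgeR or by DESeq2. High fibre against control gave 0 of 38 (0% of all windows), with 1 member, H2-Bl at 0.58, at an unadjusted p under 0.05. Acetate against control gave 0 of 38 (0% of all windows), with 3 such members: B2m at 1.07, H2-Q3 at 0.76 and H2-T3 at 0.57. B2m had 12 to 17 reads per acetate spleen library and 4 to 15 per control spleen library. High fibre against acetate gave 0 of 38 (0% of all windows), with 2 such members: B2m at -0.85 and Psmb8 at -0.47. Median changes over the members were 0.04, 0.04 and -0.04. A missed threshold does not show that a change was absent.

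Whether the diet effect differed between tissues was tested in the fit over all 23 libraries. For high fibre 0 of 47 members passed by edgeR (0.0559% of all windows) and 0 by DESeq2, with 6 members at an unadjusted p under 0.05. They were H2-T23 at -1.76, Tapbp at -0.78, H2-Q4 at -0.76, H2-Pa at -0.61, Tap1 at -0.58 and H2-DMa at -0.54, as heart effect minus spleen effect. So the high fibre changes of Tapbp, Tap1 and H2-DMa passed the test in heart and not in spleen, while their difference between tissues did not pass. For acetate 0 of 47 passed by edgeR (0% of all windows) and 0 by DESeq2, with 4 members at an unadjusted p under 0.05: B2m, H2-T23, H2-Q6 and H2-Bl. 

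Genes beside the members gave a further view. Of 31 listed genes inside the mouse MHC that do not present antigen, 24 were tested, and in high fibre heart 0 were higher and 16 lower than control (median -0.52), beside 12.6% higher and 13.6% lower over all windows. The median change of all windows ran from 0.63 in the least captured of 10 groups to -0.26 in the most captured. The 31 listed windows summed to 517 to 585 CPM in control heart, scaled over both tissues, with 5 at 0 reads. They were not compared with windows of like capture strength. Ehmt2, an H3K9 methyltransferase, changed by -0.95, Daxx, a histone chaperone, by -0.90, Tnxb, a tenascin, by -0.89 and Ring1, a Polycomb protein, by -0.87. Cyclic loess gave 14 lower and 0 higher, while library totals gave 6 higher and 0 lower and 1 surrogate variable gave 1 lower. In control heart against control spleen 3 were higher and 18 lower, beside 40% and 32.7% of all windows. With library totals 8 were higher and 4 lower (74.8% of all windows called). Along the chromosome, the tested non-presenting genes from Notch4 to Lta formed a run with no tested member among them. Ring1, Rxrb and Col11a2, called in high fibre heart, lay between Tapbp and H2-Pa, which were also called. The members H2-K2, H2-K1 and H2-Pb lay in the same stretch and were not called (0.83, 0.13 and -0.12). In spleen 0 of 22 were called in each diet comparison.

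**Figure D5:**
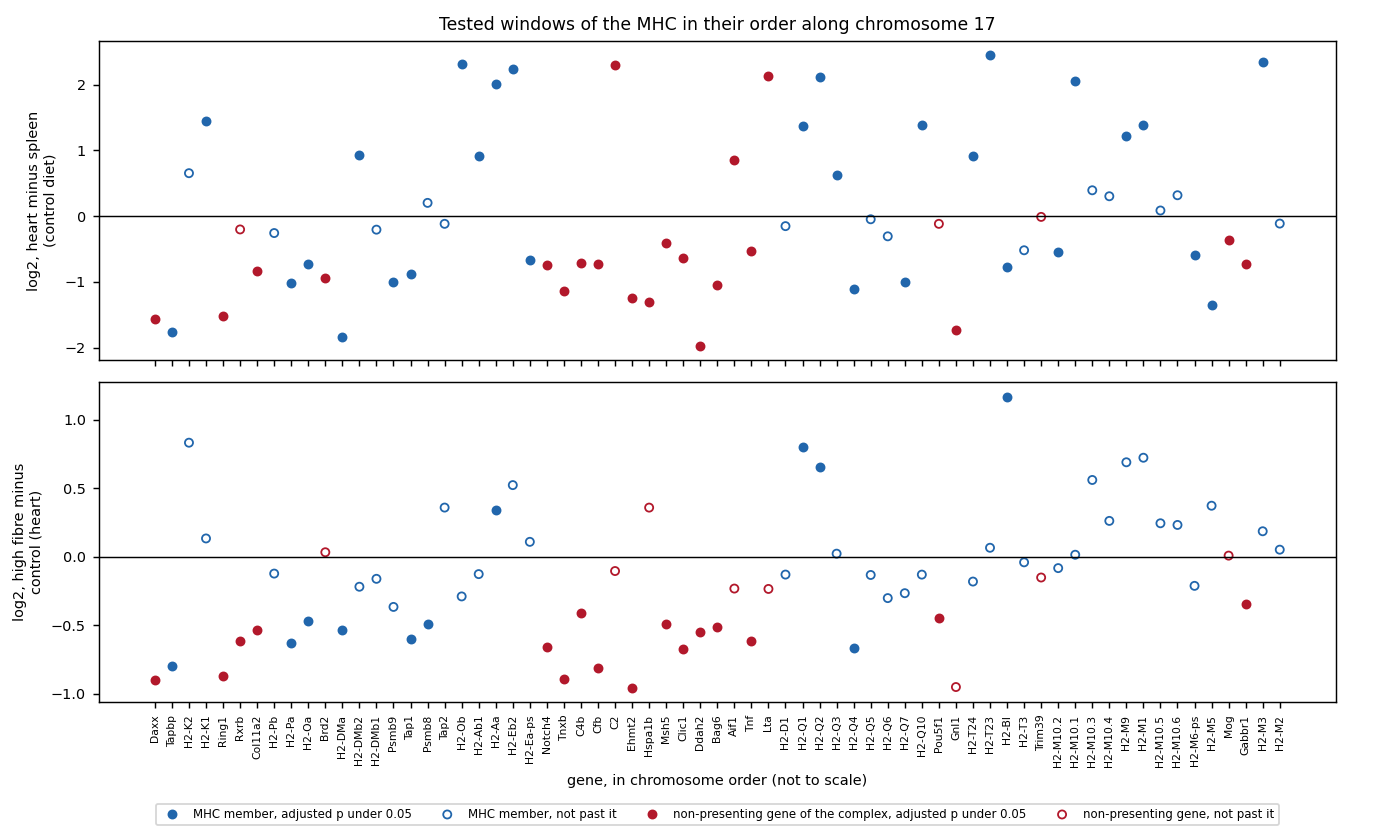
Log2 differences of tested windows in their order along chromosome 17 (not to scale), heart minus spleen on control above and high fibre minus control in heart below. Blue marks members and red marks non-presenting genes of the complex; filled points passed an adjusted p of 0.05. In the lower panel the called red points are all below 0.

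Of 12 listed regulators of MHC genes, 10 were tested, and 0 were higher and 2 lower in high fibre heart (12.6% and 13.6% of all windows): Irf1 at -0.58 and Irf8 at -0.50, both interferon regulatory factors. Ciita, the class II transactivator, had -0.29 and did not pass. Library totals gave 7 higher and 0 lower, cyclic loess 3 higher and 2 lower, and 1 surrogate variable none. In control heart against control spleen 3 regulators were higher and 6 lower, Ciita at -0.48 and Rfx5, which binds the X box, at -0.74 among the lower. Over all windows 40% were higher and 32.7% lower. With library totals 6 regulators were higher and 0 lower (74.8% of all windows called), and with cyclic loess 5 and 2 (50.4%). Class II processing genes had 1 higher and 2 lower of 7 in high fibre heart. March1 was higher, at 0.69. Lower were the thiol reductase gene Ifi30 at -0.66 and the endopeptidase gene Lgmn at -0.45. Class I loading and trimming genes had 1 higher of 5, Lnpep at 0.82, an aminopeptidase. Of 7 MHC-like genes outside the complex 1 was lower, the neonatal Fc receptor gene Fcgrt at -0.61.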

How the data were processed

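Methyl-CpG captured DNA was measured in 23 libraries: 11 of heart and 12 of spleen, in 6 groups of tissue and diet, with the libraries of a group taken as replicates. The deposited values are raw read counts per gene window of 3 kb at the start site, 1 column a library with no pooling, and all columns were matched to a sample (0 left over). Per the submitters' processing notes, featureCounts 1.5.1, BWA 0.7.10, edgeR 3.16.5 and bcl2fastq 2.19.1.403 were used, with build GRCm38. How windows are centred and how duplicate, overlapping or multiply aligned reads were counted is not given in the sources used here.

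Counts were tested across all windows with the quasi-likelihood test of edgeR 4.0.16 (R 4.3.3), TMM scaling, filterByExpr at a minimum count of 10, a prior count of 2 and Benjamini-Hochberg adjustment at 5%. Heart, spleen and both tissues were fitted separately, giving 11 comparisons. The script was tested on simulated counts. Shares of the largest window were compared by two-sided exact permutation tests.

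Alternatives were RLE scaling, library totals, cyclic loess (limma 3.58.1), no filter, DESeq2 1.42.0, 1 surrogate variable (sva 3.50.0), a replicate block and leaving out each library. Within groups, 33 library pairs had a chi-square per degree of freedom of 1.38 to 6.51, and 0 pairs were identical.

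A set of 22 members was described in each comparison, with called members added up to 20 by smallest p. Members, lists and rules were chosen with earlier results of these data known. Promoters were matched by symbol to RefSeq (GRCm38.p6).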

Additional observations from a re-analysis of the deposited data

Results flagged for a closer look

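A level was picked out where 1 of 4 libraries in a group stood far from the other 3 (the gap to the nearest, over the group's range, was past Dixon's 95% critical value). Of 144 member groups of 4 examined, 14 met this, and chance alone picks out about 1 in 20 groups. CPM here was scaled within a tissue. In high fibre heart, H2-M1 had 5.45 CPM in library 4 against 7.61 to 8.01 in the others, H2-Q2 had 12.5 in library 4 against 8.28 to 8.74, and H2-Q7 had 20.4 in library 1 against 15.5 to 16.1. In control heart, H2-Oa had 19.6 in library 1 against 14.5 to 15.1, and Psmb9 had 23.9996 in library 3 against 19.3 to 20.1.

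In control spleen, H2-Oa had 10.4 in library 1 against 12.4 to 12.7, H2-Q10 had 3.15 in library 2 against 1.93 to 1.99, and H2-Q2 had 1.10 in library 3 against 0.149 to 0.301, from 10 reads. Nlrc5 had 39.96 in control spleen library 2 against 47.5 to 48.9, and Psmb10 had 12.9 in library 1 against 7.28 to 7.48. In high fibre spleen, H2-Aa had 3.57 in library 3 against 0.715 to 1.17, H2-T23 had 3.89 in library 4 against 0.477 to 0.796, and H2-T3 had 4.28 in library 4 against 5.71 to 5.73. In acetate spleen, Cd74 had 6.57 in library 3 against 2.89 to 3.14. The causes were not tested.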

How the results depend on the processing

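Counts of called members in heart, high fibre against control (11), became 34 with library totals, 7 with cyclic loess and 0 with 1 surrogate variable. High fibre against acetate heart (2) became 0 with RLE scaling (0%), 4 with no filter (3.34%) and 1 with DESeq2 (7.50%). It became 0 with 1 surrogate variable (0.0596%) and 4 with a replicate block (6.81%). Heart against spleen became 22 on high fibre (37) and 16 on acetate (28) with cyclic loess (52.3% and 42.2% of all windows). On high fibre it became 10 with 1 surrogate variable (23.2%). The tissue difference of the high fibre effect (0) became 3 with library totals (18.7%) and 2 with the replicate block (2.88%). Leaving out 1 library gave 4 (7.45% of all windows) to 17 (42.3%) called members for high fibre against control heart. High fibre against acetate gave 0 to 6 (8.72% and 13.4% where 6 were called), and acetate against control 0 to 1 (2.02%). Heart against spleen gave 30 to 34 on control, 36 to 38 on high fibre and 23 to 29 on acetate. The other 5 counts stayed at 0. The Gm10800 share, high fibre minus control heart, ran from -25.0 to -20.6 points, with an exact permutation p of 0.0571 each time, the smallest 3 against 4 libraries allow.

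Log2 changes that reversed with library totals in high fibre heart were H2-Pa 0.067, H2-Oa 0.22, H2-DMa 0.15, H2-DMb1 0.52, Tap1 0.085, Psmb8 0.20, H2-Ab1 0.56, H2-D1 0.55, H2-Q10 0.56, Cd74 0.54, Nlrc5 0.57 and Psmb10 0.65. H2-Q1 became -0.019 with 1 surrogate variable. For heart against spleen on control, library totals gave H2-Oa 0.15, H2-Ea-ps 0.22, H2-DMb1 0.68, Tap1 0.014, Tap2 0.74, H2-D1 0.75, Nlrc5 0.23 and Psmb10 0.16. Nlrc5 became 0.058 with cyclic loess and Psmb10 0.15 with 1 surrogate variable. On high fibre, library totals gave H2-Oa 0.53, H2-DMb1 1.33, Psmb9 0.37, Tap1 0.11, Psmb8 1.54, H2-D1 1.14, H2-Q7 0.38, H2-M5 0.33, Nlrc5 0.85 and Psmb10 0.56. Cyclic loess gave H2-D1 0.19, H2-T23 -1.19 and Nlrc5 0.33, and 1 surrogate variable gave Psmb10 0.47. On acetate, library totals gave H2-Oa 0.24, H2-DMb1 0.82, Tap2 0.83, H2-D1 0.79, H2-Q6 0.00074, Nlrc5 0.24 and Psmb10 0.22, and cyclic loess gave Nlrc5 0.019. For the tissue difference of the high fibre effect, library totals gave Nlrc5 0.62. The cause was not tested, apart from the shift of the median of all windows that library totals bring.

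A change of sign counted as a reversal only where either value passed the threshold. In a further 361 of 5826 values the sign differed with neither value past it, 206 of them on leaving out a library and 54 with library totals. The reported change was at most 0.73 in size there. Replicate numbers were not taken as pairs, since not every same-numbered pair correlated above 0.1: 5 of 10 heart pairs did (6 of 30 with different numbers), 4 of 12 spleen pairs (5 of 36) and 4 of 11 pairs of heart and spleen (5 of 33). The labels do not say whether a number marks a mouse. The replicate block gave 13 called members for high fibre against control heart (31.3% of all windows). Few reads lie behind weakly captured windows, such as H2-M3 and H2-Eb2, with 0 to 3 and 2 to 5 reads in control spleen libraries.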
